A study of Mus musculus with 6 samples.

Results

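NF-κB effector genes are the genes through which the transcription factor NF-κB acts on adhesion, inflammation and defence. The 10 described here were taken by symbol from the 43074 gene symbols of a table of raw RNA sequencing counts: Icam1, Vcam1, Ptgs2, Sod2, Lcn2, Saa3, Csf1, Tnfaip2, Cd83 and Traf1. All 10 symbols were in the table, and 6 of them (Vcam1, Ptgs2, Sod2, Csf1, Tnfaip2 and Traf1) had enough counts to be tested. Of all symbols, 17433 (40.5%) passed the same filter on low counts.

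The libraries came from C2C12, a single wild-type mouse myoblast line that fuses into myotubes when serum is changed. Cells were sampled untreated at day 0, or after 4 days in medium with horse serum that contained DMSO or 1 mM 4-phenylbutyric acid (4-PBA). The labels do not say whether DMSO was also in the 4-PBA medium. 4-PBA, a short aromatic fatty acid, is known to ease protein folding and to inhibit histone deacetylases. The 3 groups had 2 libraries each, with 47908926 to 74697397 counts per library and 1 batch number throughout. The labels do not say whether the 2 libraries of a group came from separate cultures. The p-values rest on the spread between these libraries, pooled over genes and groups, and that spread may be technical only. The 9 muscle markers checked summed to 1113 to 1119 CPM (read counts scaled to the normalised library size) at day 0, 7200 to 7499 with DMSO and 6952 to 7074 with 4-PBA.

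In resting cells NF-κB dimers are held in the cytoplasm by inhibitor proteins, and cytokines such as TNF and IL-1 release them to the nucleus, where they bind short DNA sequences called kappa-B sites. Among the targets are adhesion molecules that hold leukocytes, enzymes and cytokines of inflammation, and proteins that protect cells or limit the signal. In muscle, NF-κB is known for its activity in myoblasts and for its part in inflammation and wasting.

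The promoters of 4 members are printed, 3 of them (Ptgs2, Csf1 and Traf1) because the RNA of these genes changed. That of Icam1 is printed because it holds a match on both strands although the gene's RNA was near 0. The Sod2 window, which is not printed, also holds a match on both strands, GGGGTTCCCC. Each is the 250 bases before the RefSeq start, 5′ to 3′ on the gene's strand, in build GRCm38.p6. Capitals mark matches, on either strand, to the kappa-B consensus GGGRNNYYCC or to GGNNNTTCC. In these, R is A or G, Y is C or T and N is any base. The second form was chosen after the sequences were seen, and a match to either need not be a match to the other. The windows are chr9:21015690-21015939 (plus strand) for Icam1, chr3:107760470-107760719 (minus) for Csf1, chr1:150099781-150100030 (plus) for Ptgs2 and chr2:34961773-34962022 (minus) for Traf1.
Icam1 promoter: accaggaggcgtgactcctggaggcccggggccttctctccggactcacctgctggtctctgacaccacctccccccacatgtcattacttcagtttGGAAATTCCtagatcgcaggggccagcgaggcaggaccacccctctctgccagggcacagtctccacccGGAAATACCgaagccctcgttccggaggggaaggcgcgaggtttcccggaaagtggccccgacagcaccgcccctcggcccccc
Csf1 promoter: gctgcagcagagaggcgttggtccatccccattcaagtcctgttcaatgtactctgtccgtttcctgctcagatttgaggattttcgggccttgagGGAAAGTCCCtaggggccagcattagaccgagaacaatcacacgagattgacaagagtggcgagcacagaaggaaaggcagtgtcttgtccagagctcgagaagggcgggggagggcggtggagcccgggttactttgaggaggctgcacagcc
Ptgs2 promoter: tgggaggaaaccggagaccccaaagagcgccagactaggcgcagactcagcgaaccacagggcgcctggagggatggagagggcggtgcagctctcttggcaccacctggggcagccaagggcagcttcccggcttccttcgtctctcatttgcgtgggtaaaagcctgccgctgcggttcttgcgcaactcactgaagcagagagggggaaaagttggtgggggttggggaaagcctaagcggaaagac
Traf1 promoter: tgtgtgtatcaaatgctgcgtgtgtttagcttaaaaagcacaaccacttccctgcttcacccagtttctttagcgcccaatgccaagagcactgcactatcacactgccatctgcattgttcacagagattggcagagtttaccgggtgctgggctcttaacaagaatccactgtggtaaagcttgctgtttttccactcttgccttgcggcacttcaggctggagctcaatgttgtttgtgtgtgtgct

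RefSeq gave a promoter for 8 of the 10 members. In the Icam1 window GGAAATTCC lies 153 to 145 bases before the start and fits GGNNNTTCC on both strands. GGAAATACC fits it on the minus strand only, 84 to 76 bases before the start. In the Csf1 window the kappa-B match is GGAAAGTCCC, 154 to 145 bases before the start on the minus strand. The GGNNNTTCC match lies within it. The Ptgs2 and Traf1 windows held neither, which says only that these letters are not in those 250 bases. Of the 8 windows, 3 (Sod2, Csf1 and Tnfaip2) held the kappa-B consensus, against 7.25% of 32851 windows of the same length. GGNNNTTCC, the form chosen after these sequences were seen, was in 4 (Icam1, Saa3, Csf1 and Tnfaip2), against 15.7%. Because of that choice, its share in the members cannot be weighed against that of all windows. The AP-1 heptamer TGANTCA was in 0 of the 8, against 6.75%. These matches are descriptions of the sequence and not measured binding sites.

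Levels of the members spanned a wide range. Per kilobase of exon and averaged over the 6 libraries, Csf1 (37.0 CPM per kb) and Tnfaip2 (35.4) stood at percentiles 92.1 and 91.7 of the tested genes. Ptgs2 followed at 12.9 CPM per kb, then Sod2 at 7.55 and Vcam1 at 6.74. Traf1 was far lower, at 0.232 CPM per kb and percentile 18.7. The DMSO libraries of Csf1 (34.3 ± 3.04 CPM per kb, SD, n = 2) and Tnfaip2 (35.8 ± 1.45) overlapped, so the order of these 2 genes was not resolved in that group. The 4 members that were not tested were lower again, with Saa3 at 0.0402 CPM per kb, Icam1 at 0.0185, Cd83 at 0.000873 and Lcn2 at 0 counts in all 6 libraries.

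**Figure D1:**
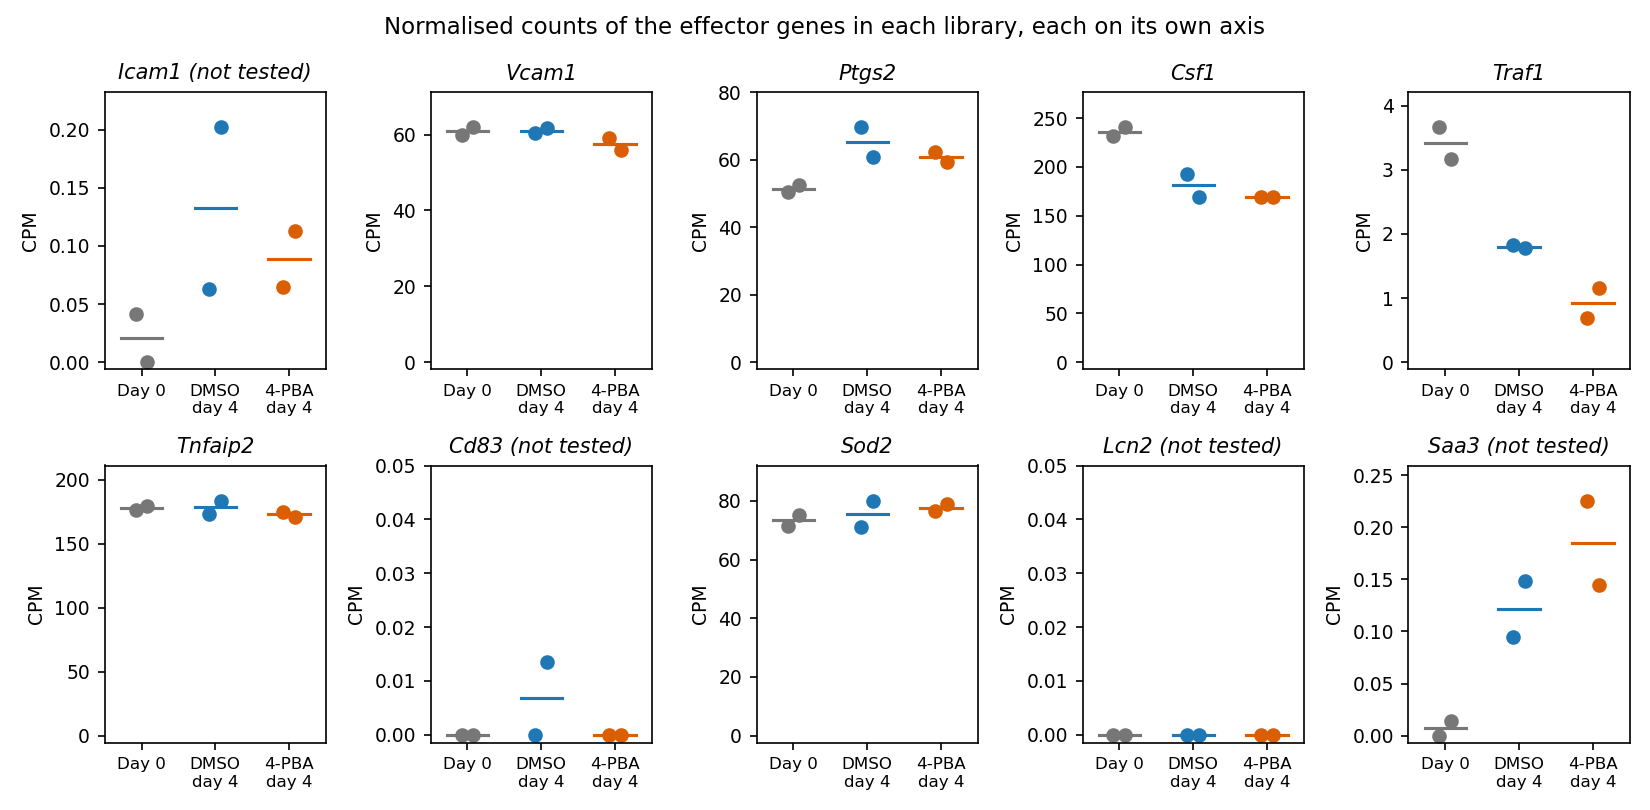
CPM (vertical axis, scaled separately in each panel) of the 10 effector genes in each library at day 0, with DMSO at day 4 and with 4-PBA at day 4; each point is 1 library and each line is the group mean. Traf1 steps down from day 0 to DMSO to 4-PBA without overlap, Ptgs2 is higher at day 4, Csf1 is lower at day 4, and Vcam1, Sod2 and Tnfaip2 stay within narrow ranges.

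Between day 0 and day 4 with DMSO, 3 of the 6 tested members changed. Ptgs2 rose, and Traf1 and Csf1 fell, by edgeR's quasi-likelihood test at an adjusted p-value under 0.05. By the same rule 66.3% of all tested genes were called, 33.8% higher and 32.6% lower, so a share of 3 in 6 lies near the background. The median log2 difference was 0.0044 over the 6 members and 0.023 over all tested genes. Day, medium and DMSO all differ between these groups, so differentiation cannot be told apart from them. RNA was taken from whole cultures, in which fewer cells of a type and less RNA per cell cannot be told apart. The muscle markers given above moved with the same comparison, 8 of 9 called higher and 1 lower, and their part in the members' values was not tested.

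Between 4-PBA and DMSO at day 4, Traf1 fell and none of the other 5 tested members was called. Of all tested genes 4.90% were called, 2.13% higher and 2.78% lower. The log2 difference was below 0 for 5 of the 6 members, against 49.4% of all tested genes, and the median was -0.091 against 0.0021. For 3 members (Traf1, Csf1 and Vcam1) both 4-PBA libraries lay below both DMSO libraries, against 22.5% of all tested genes. The differences of Csf1 and Vcam1 were small and did not pass the test. Of the 9 muscle markers 3 were also called lower with 4-PBA than with DMSO and 0 higher: Des (log2 difference -0.11, adjusted p = 0.00882), Mymk (-0.17, adjusted p = 0.0134) and Acta1 (-0.094, adjusted p = 0.0451). Their part in the members' values was not tested here either.

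Between 4-PBA and day 0, the members called were Ptgs2 (higher), Traf1 (lower) and Csf1 (lower), against a background of 65.6% of tested genes, 33.2% higher and 32.4% lower. The median was -0.060 over the members and 0.018 over all tested genes. The comparison shares its day 0 libraries with the first and its 4-PBA libraries with the second, so its values stand beside theirs and add no separate evidence.

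**Figure D2:**
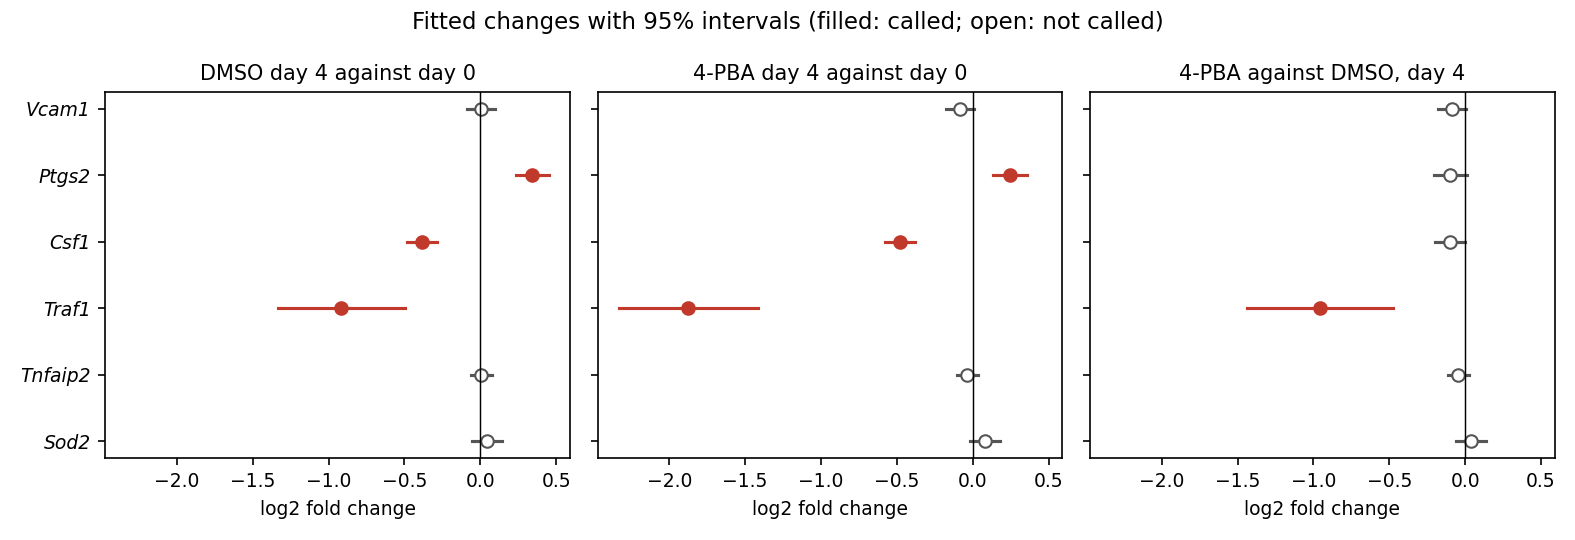
Log2 fold change (horizontal axis) of the 6 tested members in the 3 comparisons, with 95% intervals; filled points were called at an adjusted p under 0.05. Traf1 is the only member whose point is filled in the 4-PBA against DMSO comparison, at -0.96, while the intervals of the other 5 members there include 0.

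Among the adhesion genes, Vcam1 varied little and Icam1 was barely detected. Vcam1 encodes an adhesion receptor that binds integrins of the alpha-4 class, and it is known from endothelium and from developing muscle. It measured 59.9 and 61.9 CPM at day 0, 60.3 and 61.7 under DMSO and 59.0 and 56.0 under 4-PBA. The day 0 and DMSO libraries overlapped, and both 4-PBA libraries were the lowest of the 6. Its log2 difference between DMSO and day 0 was 0.0019 (95% interval -0.091 to 0.094, adjusted p = 0.973). Between 4-PBA and DMSO it was -0.086 (-0.18 to 0.0068, adjusted p = 0.350). Its exons overlap those of the antisense gene Gm43109 by 61 bases, and whether counting used strand is not given in the sources used here.

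The integrin partners of Vcam1 moved in opposite directions between day 0 and DMSO. Itga4, the alpha-4 chain, measured 5.86 and 6.25 CPM at day 0, 30.0 and 31.6 under DMSO and 28.3 and 26.6 under 4-PBA. It rose by 2.34 on the log2 scale between day 0 and DMSO (SE 0.0782, adjusted p = 3.73e-24), while its difference between 4-PBA and DMSO was -0.16 (adjusted p = 0.169). Its exons overlap those of Cerkl on the opposite strand. Itgb1, the beta chain that pairs with it, went up from 878 ± 6.46 CPM at day 0 to 1346 ± 26.5 with DMSO (log2 difference 0.62, SE 0.0269, adjusted p = 1.06e-20). Itgb7, the other beta chain that pairs with it, fell from 39.5 ± 1.88 to 1.55 ± 0.0737 CPM (log2 difference -4.67, SE 0.103, adjusted p = 1.75e-29). Neither beta chain was called between 4-PBA and DMSO. Endothelial cells also carry Vcam1, and 6 endothelial markers summed to 1.41 to 1.73 CPM at day 0, 2.36 to 2.71 with DMSO and 1.93 to 1.98 with 4-PBA. The higher sum at day 4 was that of Tek, which rose from 0.667 to 2.07 CPM between day 0 and DMSO. Pecam1 (0.426 to 0.179 CPM) and Kdr (0.316 to 0.0202 CPM) were called lower on few counts. Pecam1 had 22 and 28 counts at day 0 and 15 and 9 with DMSO (adjusted p = 0.0486 by edgeR). Kdr had 12 and 27 at day 0 and 0 and 3 with DMSO. Of the 4 endothelial markers tested, edgeR called 3 in this comparison and DESeq2 called 2. Their part in the adhesion genes' values was not tested.

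Icam1 encodes the adhesion receptor for the integrins of leukocytes, and had 2 and 0 counts at day 0, 4 and 15 under DMSO and 4 and 7 under 4-PBA. The libraries of day 4 lay above those of day 0, the 2 groups of day 4 overlapped, and 1 DMSO library held the highest count. Summed over its 2 libraries the DMSO group had 19 counts, which is 8.22 times the day 0 level (counting interval 1.98 to 72.8 at 95%). The 4-PBA group had 11 counts, or 0.640 times the DMSO level (0.275 to 1.42). These intervals cover counting error only. With every gene of at least 1 count kept, edgeR gave Icam1 an adjusted p of 0.0634 between DMSO and day 0 and of 0.895 between 4-PBA and DMSO. Its exons overlap 511 bases of the antisense gene Gm47079. The integrin chains that bind Icam1 also had few counts, with at most 90 of Itgb2, 36 of Itgal and 6 of Itgam in any library. Itgam shares 3450 of its 5024 exon bases with Gm49368 on the same strand, and how shared reads were counted is not given. Itgal was called lower (log2 difference -1.43, adjusted p = 0.0269) and Itgb2 higher (0.91, adjusted p = 0.0150) with DMSO than at day 0. Each call was lost without day 0 library 2 or DMSO library 2, that of Itgal also without DMSO library 1, and neither was made by the DESeq2 Wald test. Neither was called between 4-PBA and DMSO.

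Ptgs2 encodes the inducible cyclooxygenase COX-2, the enzyme that starts prostaglandin synthesis in inflamed tissue. It measured 50.3 and 52.4 CPM at day 0, 69.6 and 60.8 under DMSO and 62.3 and 59.4 under 4-PBA. All 4 libraries of day 4 were above both of day 0, and the 4-PBA libraries overlapped the DMSO libraries. From day 0 to DMSO it rose 1.27-fold, a log2 difference of 0.34 (95% interval 0.23 to 0.45, adjusted p = 2.41e-06). From day 0 to 4-PBA the difference was 0.24 (0.13 to 0.35, adjusted p = 2.45e-04). Between 4-PBA and DMSO it was -0.098 (-0.21 to 0.010, adjusted p = 0.367). That last value turned on which DMSO library was kept: it was -0.19 and was called (adjusted p = 0.00902) without DMSO library 2, and 0.00063 without DMSO library 1.

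Several other genes of the prostaglandin pathway changed as well, and 2 of them, Ptgs1 and Ptger4, were lower with 4-PBA than with DMSO. Ptgs1, the constitutive cyclooxygenase, measured 395 and 383 CPM at day 0, 175 and 163 under DMSO and 147 and 154 under 4-PBA, with no overlap between any groups. It fell by 1.21 on the log2 scale between day 0 and DMSO (SE 0.0351, adjusted p = 1.52e-24), and its 4-PBA against DMSO value was -0.16 (SE 0.0353, adjusted p = 0.00366). That call was lost without 4-PBA library 1. Its exons overlap the antisense gene Gm43621. Ptger4, a receptor of prostaglandin E2, measured 35.8 and 36.3 CPM at day 0, 47.9 and 45.4 under DMSO and 38.1 and 35.9 under 4-PBA. It rose by 0.37 from day 0 to DMSO and fell by 0.33 from DMSO to 4-PBA (SE 0.0523, adjusted p = 7.64e-05), a call made under all 14 alternative settings tried for it. The 4-PBA libraries overlapped those of day 0, with a difference from day 0 of 0.037 (adjusted p = 0.568). Ptger4 overlaps Gm15937 and Ttc33 on the opposite strand.

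Prostacyclin synthase Ptgis rose from 50.9 ± 2.60 CPM at day 0 to 148 ± 6.67 with DMSO, by 1.54 on the log2 scale (SE 0.0417), and was not called between 4-PBA and DMSO (0.020, adjusted p = 0.874). The prostaglandin E synthases fell: Ptges from 1.35 ± 0.332 to 0.261 ± 0.102 CPM, with log2 differences of -2.39 for Ptges, -0.67 for Ptges2 and -0.68 for Ptges3. Pla2g4a, the phospholipase that releases arachidonic acid for both cyclooxygenases, fell by 0.78. Hpgd, which breaks prostaglandins down, had 39 and 33 counts at day 0, 9 and 0 under DMSO and 8 and 3 under 4-PBA. Its lower level with DMSO than at day 0 was called by edgeR (adjusted p = 5.9e-04) but not by the DESeq2 Wald test. None of these 6 genes was called between 4-PBA and DMSO. Among the other receptors of prostaglandin E2, Ptger1 was called between 4-PBA and day 0 only, at 0.53 (adjusted p = 0.0063), and Ptger2 and Ptger3 had at most 10 counts in any library.

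Over all 29 receptor and enzyme partners listed for the members, 24 were tested, of which 7 were called higher and 15 lower between day 0 and DMSO, with a median of -0.43, against 33.8% and 32.6% of all tested genes and their median of 0.023. Between 4-PBA and DMSO 0 were called higher and 2 lower (Ptgs1 and Ptger4), against 2.13% and 2.78% of all tested genes, with a median of 0.059 against 0.0021. The plot of partner levels gives each of the 24 by library.

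**Figure D3:**
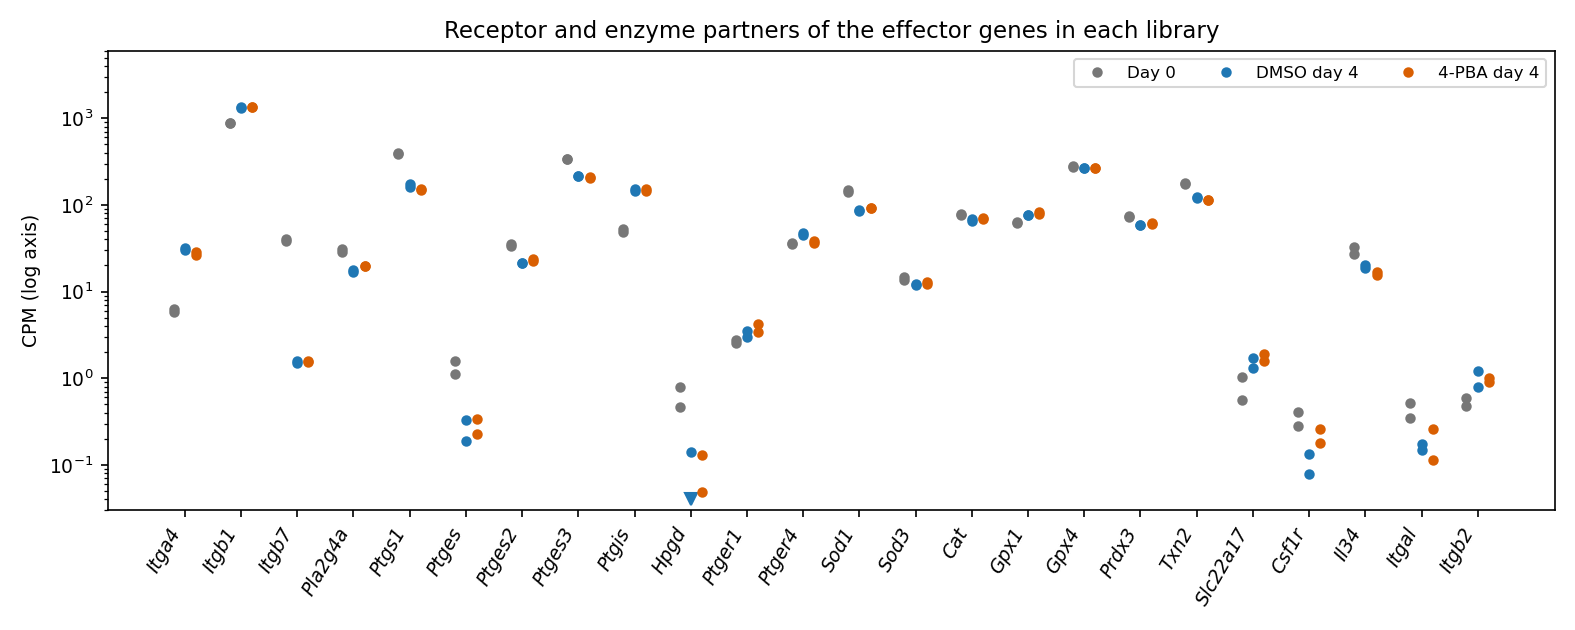
CPM on a log axis of the 24 tested receptor and enzyme partners of the members in each library of the 3 groups; the triangle at the bottom stands for the 1 DMSO library in which Hpgd had 0 counts. Itga4 and Ptgis are higher and Itgb7 and Ptgs1 lower at day 4, and in Ptger4 the 4-PBA libraries overlap those of day 0, whose mean is 36.1 CPM.

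Csf1 encodes macrophage colony-stimulating factor, the growth factor on which macrophages depend. It measured 231 and 241 CPM at day 0, 192 and 169.6 under DMSO and 168.8 and 169.6 under 4-PBA. Both groups of day 4 lay below day 0, and DMSO library 2 stood beside the 4-PBA libraries while DMSO library 1 stood above them. Csf1 fell by 0.38 on the log2 scale from day 0 to DMSO (95% interval -0.48 to -0.28, adjusted p = 1.98e-06) and by 0.48 from day 0 to 4-PBA (-0.58 to -0.38, adjusted p = 1.49e-07). Between 4-PBA and DMSO the difference was -0.097 (-0.20 to 0.0023, adjusted p = 0.314). It was -0.18 and was called (adjusted p = 6.49e-05) without DMSO library 2, and -0.0049 without DMSO library 1.

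Il34, the other ligand of the same receptor, measured 26.8 and 32.4 CPM at day 0, 18.6 and 20.3 under DMSO and 16.7 and 15.6 under 4-PBA. It fell by 0.61 on the log2 scale between day 0 and DMSO (adjusted p = 8.2e-08). Its 4-PBA against DMSO value of -0.27 narrowly missed the threshold (adjusted p = 0.0513). Il34 was called there in 6 of 14 alternatives, and not by the DESeq2 Wald test or limma-voom. Gm15894 and Gm15895 overlap it on the opposite strand. The receptor itself, Csf1r, had 5 to 20 counts per library, and was lower with DMSO than at day 0 (log2 difference -1.64, SE 0.628, adjusted p = 0.0212), a call lost in 3 of 13 alternative settings. Csf1r is a macrophage marker. Of 11 leukocyte markers 4 were tested, Fcgr1 was at 0 in all 6 libraries, and the defining genes Ptprc and Tyrobp had at most 3 counts in each, while Adgre1 had 3 to 17. Their summed level was 18.0 to 18.8 CPM at day 0, 7.18 to 9.28 with DMSO and 7.47 to 9.02 with 4-PBA. It was mostly Cd14 (357 to 859 counts per library) and Cd68 (83 to 373), which other cells also express and which were both called lower with DMSO than at day 0. The part of leukocyte RNA in the Csf1r difference was not tested.

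Traf1 encodes an adaptor of TNF receptor family signalling that is itself induced by NF-κB. It had 178 and 222 counts at day 0, 115 and 132 under DMSO and 43 and 72 under 4-PBA, or 3.66 and 3.16, 1.82 and 1.78, and 0.692 and 1.16 CPM. The 3 groups did not overlap, and the 4-PBA libraries were the furthest apart in relative terms, at a ratio of 1.67. From day 0 to DMSO Traf1 fell by 0.92 on the log2 scale (95% interval -1.34 to -0.50, adjusted p = 1.97e-04). From DMSO to 4-PBA it fell by 48.5%, a log2 difference of -0.96 (-1.44 to -0.48, adjusted p = 0.0108). From day 0 to 4-PBA the difference was -1.87 (-2.33 to -1.41, adjusted p = 5.03e-09). Among the 484 genes called lower with 4-PBA than with DMSO, 8 fell by more than Traf1, and the median of the 484 was -0.21. The SE of Traf1 there was 0.236, at which a fall as small as that median could not have been called. Its place among the called genes therefore does not measure the strength of its response.

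The Traf1 call between 4-PBA and DMSO rested on 115 counts with 4-PBA and 247 with DMSO, and on 4-PBA library 1. Without that library the log2 difference was -0.63 (adjusted p = 0.296), and without 4-PBA library 2 it was -1.38 (adjusted p = 0.00691). Leaving out either DMSO library gave -0.94 and -0.97. The direction was lower in all of these fits.

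**Figure D4:**
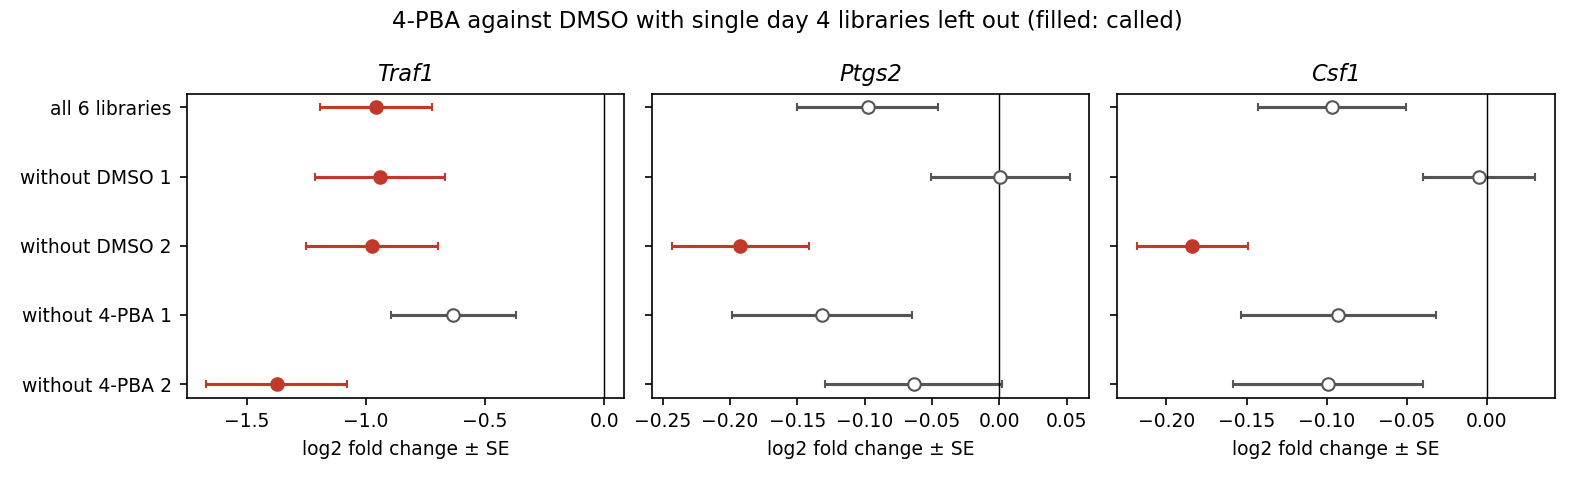
Log2 fold change between 4-PBA and DMSO (horizontal axis, each panel with its own scale) of Traf1, Ptgs2 and Csf1 in the fit of all 6 libraries and in fits that leave out 1 library, with bars of 1 SE. Traf1 is below 0 in every fit and ranges from -1.38 to -0.63, while Ptgs2 and Csf1 reach 0.00063 and -0.0049 without DMSO library 1.

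Tnfaip2, a gene first known for its induction by TNF in endothelium, was not called in any comparison. It measured 176 and 179 CPM at day 0, 173 and 183 under DMSO and 175 and 171 under 4-PBA. The DMSO libraries spanned those of day 0 and overlapped those of 4-PBA. The log2 difference was 0.0069 between DMSO and day 0 (95% interval -0.062 to 0.076, adjusted p = 0.870) and -0.044 between 4-PBA and DMSO (-0.11 to 0.025, adjusted p = 0.577). Both 4-PBA libraries lay below both of day 0, by -0.037 on the log2 scale (adjusted p = 0.347). Gm40578 overlaps its exons by 314 bases on the opposite strand.

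Sod2 encodes the manganese superoxide dismutase of mitochondria, and likewise varied little. It measured 71.4 and 75.2 CPM at day 0, 71.1 and 80.0 under DMSO and 76.4 and 79.0 under 4-PBA. DMSO spanned both other groups, and the 4-PBA libraries lay above those of day 0. The log2 difference was 0.044 between DMSO and day 0 (95% interval -0.054 to 0.14, adjusted p = 0.438) and 0.039 between 4-PBA and DMSO (-0.059 to 0.14, adjusted p = 0.777). Without DMSO library 1 the first of these became 0.13 and was called (adjusted p = 0.0135).

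Of the other antioxidant enzymes, most fell between day 0 and DMSO while Gpx1 rose. Sod1, the dismutase of the cytosol, fell from 144 ± 3.87 to 86.9 ± 1.57 CPM (log2 difference -0.73, SE 0.0368, adjusted p = 6.47e-19). Txn2 and Prdx3, which work in the mitochondrion with Sod2, fell by 0.54 and 0.31 on the log2 scale. Catalase (Cat) fell by 0.22 and the secreted dismutase Sod3 by 0.24, and the Sod3 call was lost without day 0 library 2 or DMSO library 2. Gpx1, a glutathione peroxidase, rose by 0.27, and Gpx4 was not called (-0.057, adjusted p = 0.0929). None of these 7 enzymes was called between 4-PBA and DMSO.

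Lcn2 and Saa3, secreted proteins of the acute phase response, were at or near 0. Lcn2, which captures the iron carriers of bacteria, had 0 counts in all 6 libraries. A count of 0 allows up to 3 counts, which is 0.0252 CPM over the day 0 group, 0.0218 over DMSO and 0.0241 over 4-PBA. Among its receptors Lrp2 and Mc4r had at most 8 counts in any library, while Slc22a17 rose from 0.792 ± 0.335 CPM at day 0 to 1.51 ± 0.265 with DMSO (log2 difference 0.97, adjusted p = 0.00293). Without day 0 library 2 that difference was 0.55 and was not called.

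Saa3, a serum amyloid A protein, had 0 and 1 counts at day 0, 6 and 11 under DMSO and 14 and 9 under 4-PBA. All 4 libraries of day 4 exceeded both of day 0, and the 2 groups of day 4 overlapped. The DMSO sum of 17 counts was 14.7 times the day 0 level (counting interval 2.31 to 615) and the 4-PBA sum of 23 was 1.5 times the DMSO level (0.765 to 2.98). With every gene of at least 1 count kept, edgeR called Saa3 higher with DMSO than at day 0 (adjusted p = 0.0181) and with 4-PBA than at day 0 (adjusted p = 0.00329). In that fit 19.6% and 19.1% of genes were called higher. Saa3 also passed the usual filter, through its day 4 libraries, in some fits without 1 library, and there the first difference was not called without day 0 library 1 (adjusted p = 0.0918) or without DMSO library 2 (adjusted p = 0.0952). Saa3 has close paralogs, Saa1 and Saa2, so the assignment of its few reads is uncertain.

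Cd83, a surface protein of mature dendritic cells, had 1 count in 1 DMSO library and 0 in the other 5. Its level could not be told from 0 at this depth in any group, and no fold change is given.

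Genes of the NF-κB pathway itself were read in the same fit. Of 32 signalling genes 31 were tested, and between 4-PBA and DMSO 0 were called higher and 4 lower (2.13% and 2.78% of all tested genes), with 28 of 31 below 0 and a median of -0.081 against 0.0021 over all tested genes. The 4 were Nfkb2, Relb, Tnfaip3 and Traf2. Nfkb2 and Relb encode the 2 partners of the alternative NF-κB dimer. Nfkb2 measured 87.6 and 89.1 CPM at day 0, 125 and 122 under DMSO and 106 and 108 under 4-PBA. It was called lower with 4-PBA than with DMSO (log2 difference -0.20, SE 0.0362, adjusted p = 3.62e-04), as it was under all 14 alternatives tried for it. Its exons overlap Psd and AC114539.1 on the opposite strand.

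Relb measured 13.9 and 12.9 CPM at day 0, 32.6 and 34.5 under DMSO and 27.5 and 28.6 under 4-PBA, without overlap. It fell by 0.26 between DMSO and 4-PBA (SE 0.0629, adjusted p = 0.00989), a call lost without DMSO library 2 or either 4-PBA library. Tnfaip3, which encodes the feedback inhibitor A20, measured 58.8 and 58.2, 51.7 and 53.3, and 45.5 and 40.9 CPM in the same order of groups. It fell by 0.28 between DMSO and 4-PBA (SE 0.0503, adjusted p = 3.88e-04), a call lost without 4-PBA library 2. Traf2, the adaptor with which Traf1 pairs, measured 37.7 and 38.1, 43.5 and 40.1, and 34.9 and 38.5 CPM. Its 4-PBA against DMSO value was -0.18 (SE 0.0558, adjusted p = 0.0468), and it was called in only 4 of 14 alternatives.

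Between day 0 and DMSO, 17 of the 31 signalling genes were called higher and 6 lower, with a median of 0.14. Over all tested genes 33.8% were called higher and 32.6% lower, and the median was 0.023. Map3k14, the kinase of the alternative pathway, rose the most, by 1.37 on the log2 scale (SE 0.0549, adjusted p = 6.31e-21), and shares exons with 1700028N14Rik on the same strand. Nfkbid, a nuclear inhibitor family protein, fell by 2.0 (SE 0.593, adjusted p = 0.0035) on 29 and 26 counts at day 0, and the call was lost without day 0 library 1 or DMSO library 2.

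Of 19 ligands and receptors that activate NF-κB, 14 were tested and 0 were called by edgeR between 4-PBA and DMSO. At an unadjusted p under 0.05 there were 4, of which 2 were higher and 2 lower, against 8.15% and 8.54% of all tested genes. DESeq2 and limma-voom called 0. Between day 0 and DMSO 4 were called higher and 6 lower, or 71.4% of those tested, near the 66.3% of all tested genes. Cd40, a receptor of the TNF family, fell from 17.4 ± 0.428 to 5.30 ± 0.183 CPM (log2 difference -1.71, SE 0.0998, adjusted p = 4.12e-17). Lta, a TNF family ligand, had 10 and 17 counts at day 0 and 21 and 48 with DMSO, and its call (1.12, adjusted p = 0.0498) was made in 2 of 13 alternatives.

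Of 30 other effector genes of NF-κB, 20 were tested, and between 4-PBA and DMSO 1 was called higher and 3 lower, against 2.13% and 2.78% of all tested genes, with a median of 0.060 against 0.0021. Bcl2l1 and Cflar, which protect cells from apoptosis, fell by 0.27 (SE 0.0466, adjusted p = 3.14e-04) and 0.14 (SE 0.0387, adjusted p = 0.0209). The Bcl2l1 call was made in all 14 alternatives tried for it, and that of Cflar was lost without DMSO library 1 or either 4-PBA library. The chemokine gene Ccl7 fell by 0.40 (SE 0.114, adjusted p = 0.0356), but by 0.17, with the call lost, without DMSO library 2 (adjusted p = 0.563). Its call held in 6 of 14 alternatives and was not made by DESeq2 or limma-voom. Cx3cl1, a chemokine bound to the membrane, rose by 0.26 (SE 0.0721, adjusted p = 0.0269), a call lost without DMSO library 2 or either 4-PBA library. Between day 0 and DMSO 7 of the 20 were called higher and 8 lower, against 33.8% and 32.6% of all tested genes. The neutrophil chemokine Cxcl5 fell from 15.4 ± 1.96 to 0.709 ± 0.0501 CPM (log2 difference -4.44, SE 0.162, adjusted p = 4.78e-23). The gelatinase gene Mmp9 had 2 and 3 counts at day 0 and 22 and 27 with DMSO (adjusted p = 3.23e-04).

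**Figure D5:**
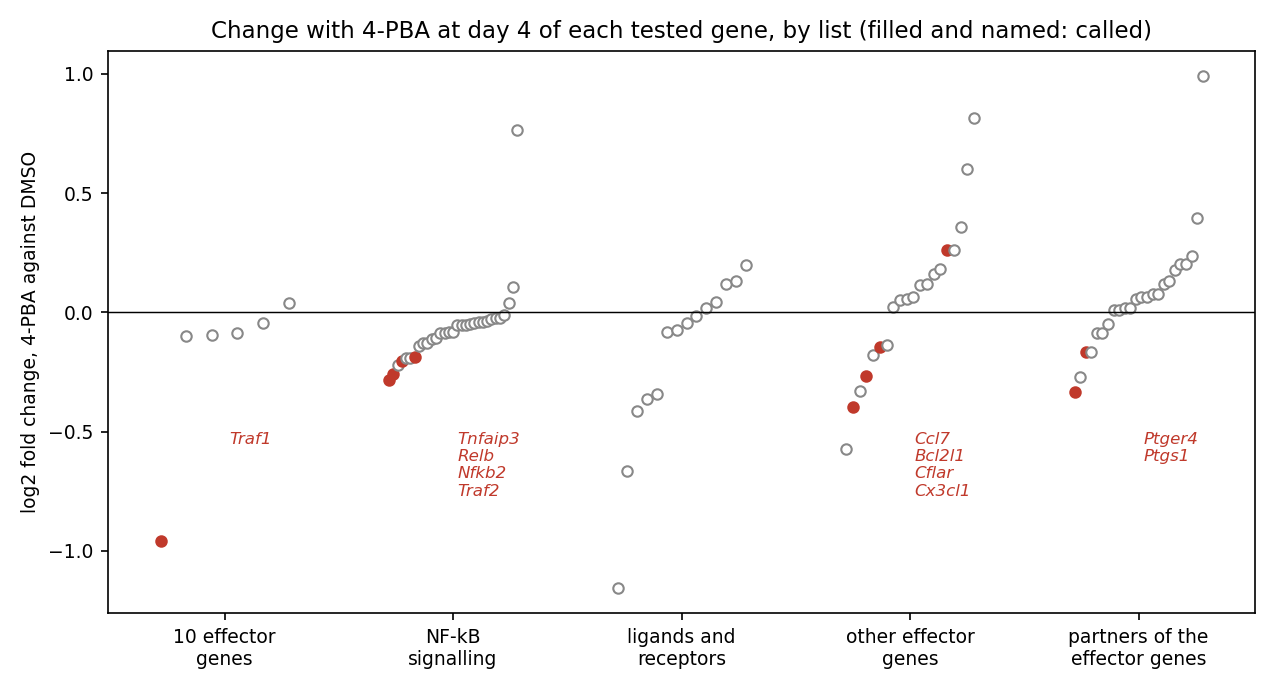
Log2 fold change between 4-PBA and DMSO (axis in log2 units) of each tested gene in the member list and in 4 related gene lists; each point is 1 gene, and filled, named points were called. Traf1 is the lowest called point at -0.96, and the points of the signalling list lie mostly below 0, 28 of 31.

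Some genes outside these lists had nearly the same profile over the 6 libraries as a member. Likeness was the root mean square difference between log2 CPM values centred on each gene's mean, over 10027 candidate genes of at least 10 CPM. For Ptgs2 the closest were Bltp1 (0.0338) and Ap4m1 (0.0354), and for Csf1 they were Mpdu1 (0.0241) and Pank4 (0.0251). The profiles of Vcam1, Sod2 and Tnfaip2 were nearly flat. The closest genes were Alg11 (0.0140) and Aak1 (0.0172) for Vcam1, and Usp25 (0.0175) and Tceal9 (0.0222) for Sod2. For Tnfaip2 they were Inafm2 (0.00888) and Tor1aip2 (0.00967). Traf1 was below 10 CPM in all groups and was not matched.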

How the data were processed

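Per the labels' protocols, DNase-treated total RNA of C2C12 cells went into directional libraries for Illumina sequencing. The deposited values are raw counts per gene symbol, 1 column per library, neither normalised nor pooled. The submitters' processing notes name build GRCm39. The aligner, the counter, the annotation, any filter and the use of strand are not given in the sources used here. The 10 genes and the gene lists were chosen with earlier results of these data known.

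The tests were run in R 4.3.3 with edgeR 4.0.16. After filterByExpr (minimum count 10) and TMM scaling, robust glmQLFit was fitted to all 6 libraries with 1 mean for each group (3 residual and a median of 30.3 prior degrees of freedom, common biological coefficient of variation 3.74%). P-values of the quasi-likelihood F test were adjusted by Benjamini-Hochberg over 17433 genes, and genes under 0.05 were called. CPM were computed after TMM scaling. A log2 fold change divided by the square root of F gave its standard error (SE), and 95% intervals are per gene and unadjusted. Relabelling 2 libraries against 2 cannot give p below 0.333, so the tests lean on the spread pooled over genes and groups. Replicates differed by more than counting error: the replicates' chi-square per degree of freedom was 3.98 at day 0, 7.15 with DMSO and 5.71 with 4-PBA.

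Exon lengths and overlaps came from GENCODE M21 (build GRCm38), which matched all 10 members and 16457 tested genes, and promoters from RefSeq. Untested members were described by summed counts with exact binomial counting intervals. The named genes were the 10 members, their receptor and enzyme partners, and every gene of the 4 pathway lists called between 4-PBA and DMSO. Also named were the 2 called genes of each of these lists with the largest change between day 0 and DMSO. For each member of at least 10 CPM in its highest group, the 2 genes most like it were named. The alternatives tried were scaling by DESeq2 size factors or by library size only, keeping every gene of at least 1 count, a filter of 10 counts in both libraries of any group with a mean level of 1 CPM, the Wald test of DESeq2 1.42.0, limma-voom (limma 3.58.1), a fit of the 4 compared libraries alone, a replicate block, a threshold of 0.01, leaving out each library and, added after seeing the data, a change of at least 2-fold. The fit was tested on simulated data. Python 3.11.15 with matplotlib 3.10.9 drew the figures.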

Additional observations from a re-analysis of the deposited data

How the results depend on the processing

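Requiring at least 2-fold change, a rule added after seeing the data, left 0 members called between DMSO and day 0, 0 between 4-PBA and DMSO, and 1 between 4-PBA and day 0. The counts over all genes became 3825, 12 and 3699. At an adjusted p under 0.01, 0 members and 424 genes were called between 4-PBA and DMSO. Leaving out each library in turn gave 0 to 3 members and 296 to 1194 genes in that comparison, and 3 to 6 members between DMSO and day 0, where the fit without DMSO library 1 let Icam1 and Saa3 pass the filter, through libraries in which they were high, and called Sod2. The number of members called was otherwise within 1.5 times its value in every alternative.

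The values that changed sign were all from members that were not called. Between DMSO and day 0, Vcam1 and Tnfaip2 gave -0.0071 and -0.0021 with DESeq2 size factors, -0.026 and -0.021 with library size only, -0.0070 and -0.0021 with the DESeq2 Wald test, and -0.0056 and -0.00079 with only the 4 libraries compared. When each library was left out in turn, Vcam1 ranged from -0.025 to 0.031, Tnfaip2 from -0.036 to 0.049 and Sod2 from -0.046 to 0.13. Between 4-PBA and DMSO, Ptgs2 ranged from -0.19 to 0.00063 and Sod2 from -0.044 to 0.13, and both changed sign without DMSO library 1. The cause was not tested.

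Replicate numbers did not pair the libraries: the correlations of their deviations between groups were -0.0325, -0.00343 and -9.26e-04. With a replicate block the members called stayed at 3, 1 and 3, and 768 genes were called between 4-PBA and DMSO against 855 without it. Icam1, Saa3, Cd83 and Lcn2 were limited by depth, and 2 libraries per group limited the rest.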
